A study of Homo sapiens with 14 samples.

Results

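The effect of targeting EZH2 was compared gene by gene between the human leukaemia lines MV4-11 and EOL-1. The measure is the log2 fold change of shEZH2 against EV in MV4-11 minus that of sgEZH2 against sgEV in EOL-1. The comparison takes 8 of the 14 libraries of the series and 4 of its 7 groups, those in which EZH2 was targeted and their own controls, with 2 libraries in each group. It is limited to the 13720 gene rows that stand in both EZH2 tables, of which 13543 passed the filter on low counts. In MV4-11, of myelomonocytic origin, KMT2A is fused to AFF1 and FLT3 has an internal tandem duplication, while EOL-1 derives from an eosinophilic leukaemia with the FIP1L1-PDGFRA fusion. The MV4-11 libraries are labelled shEZH2, a hairpin RNA that lowers the transcript, and EV. The EOL-1 libraries are labelled sgEZH2, a guide RNA, and sgEV. Cells of all 4 groups, the controls included, grew in RPMI1640 with serum and received doxycycline at 1 µg/ml for 4 days. The labels do not say whether the cells were clones or pools. Line and depletion method differ together, so their parts in any difference below cannot be told apart. The column names give a single hairpin and a single guide. Effects of either on other targets thus cannot be told apart from those of EZH2.

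EZH2 is the catalytic subunit of Polycomb repressive complex 2 (PRC2), which methylates lysine 27 of histone H3 and thereby keeps genes silent in a manner that depends on cell type. In myeloid leukaemia it has been described both as a brake on differentiation genes and, apart from PRC2, as a partner of activators such as MYC and p300, the relation that the series was set up to examine. A comparison of lines asks which transcripts change alike when EZH2 is lost and which depend on the cell.

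The MV4-11 libraries held 15034533 to 16274568 gene counts each and the deeper EOL-1 libraries 24574102 to 30256823, and rows in both tables held 99.6 to 99.7% of them. Below, a level in CPM is a count scaled by TMM to the size of the library. A change or difference is a log2 fold change ± SE, with an adjusted p from edgeR's quasi-likelihood test over all 13543 genes. The SE is the size of the change divided by the square root of that test's F statistic. It is thus worked back from the test, and it is rough for genes at few counts. Genes are said to rise, fall or differ where adjusted p was under 0.05. The labels name no separate cultures behind the 2 libraries of a group, so p-values measure the spread between libraries, which may be technical. Of the genes that mark the lines, MEIS1 stood at 47.9 and 46.0 CPM in EV and 0.972 and 1.22 CPM in sgEV, HOXA9 at 54.8 and 57.4 CPM in EV and 71.6 and 71.5 CPM in sgEV, and PDGFRA had a row in the EOL-1 table only. Of 13 eosinophil and basophil markers only RNASE2 and RNASE3 had rows in both tables, and PRG2 and CCR3 had one in the MV4-11 table only, so the eosinophilic origin of EOL-1 could be checked on 2 markers only. Their summed level was 83.8 and 89.7 CPM in EV and 45.6 and 44.5 CPM in sgEV. Of 13 myelomonocytic markers 11 were tested. Their sum was 1157 and 1185 CPM in EV and 1432 and 1460 with shEZH2. In EOL-1 it was 1163 and 1175 in sgEV and 2910 and 2937 with sgEZH2. LYZ alone held 177 and 192 CPM of the sum in EV and 472 and 480.5 with shEZH2. In EOL-1 LYZ held 214 and 207 CPM in sgEV and 1716 and 1744 with sgEZH2. The rises of the sum thus mostly follow LYZ. The median change of the 11 markers was 0.04 in MV4-11 and 0.60 in EOL-1.

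The targeted transcript was lower in both lines. EZH2 stood at 69.7 and 72.0 CPM in the EV libraries and at 9.25 and 9.21 CPM with shEZH2. In EOL-1 it stood at 75.1 and 74.8 CPM in sgEV and at 29.3 and 27.6 CPM with sgEZH2. The controls of both lines thus began at similar levels, and 13% of the transcript was left in MV4-11 against 37.9% in EOL-1. The fall was -2.94 ± 0.07 in MV4-11 and -1.40 ± 0.05 in EOL-1, a difference of -1.54 ± 0.09 (adjusted p = 9.1e-09). A guide acts on the gene and not on the transcript, so these levels do not give the EZH2 protein left in EOL-1. MYC rose in MV4-11, from 545 and 554 to 647 and 654 CPM (0.24 ± 0.03), while in EOL-1 it stood at 716 and 723 CPM in sgEV and 691 and 696 CPM with sgEZH2 and did not pass the test (-0.05 ± 0.03). The difference for MYC was 0.30 ± 0.04 (adjusted p = 1.2e-04).

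Many genes changed in each line where EZH2 was targeted, and most of them were called in 1 line only. A call in 1 line alone is not a difference between the lines. Of 2607 genes called in MV4-11 only, 1040 did not pass the test of the difference. Of 1794 called in EOL-1 only, 843 did not. In MV4-11, 1961 genes rose (14.5% of those tested) and 2039 fell (15.1%). In EOL-1, 1698 rose (12.5%) and 1489 fell (11%). Both lines shared 422 risen genes (3.12% of genes tested), which are 21.5% of those that rose in MV4-11 and 24.9% of those that rose in EOL-1. They shared 363 fallen genes (2.68%), which are 17.8% of the fallen genes of MV4-11 and 24.4% of those of EOL-1. Of all genes tested, 12.5% rose in EOL-1 and 14.5% in MV4-11, and 11% and 15.1% fell, each below the matching share. Other genes went in opposite directions: 237 rose in MV4-11 and fell in EOL-1 (1.75%), and 371 fell in MV4-11 and rose in EOL-1 (2.74%). The 237 make up 12.1% of the genes that rose in MV4-11 and 15.9% of those that fell in EOL-1. These shares are near the 11% of all genes that fell in EOL-1 and the 14.5% that rose in MV4-11. The 371 make up 18.2% of the genes that fell in MV4-11 and 21.8% of those that rose in EOL-1. For these, the shares of all genes are 12.5% risen in EOL-1 and 15.1% fallen in MV4-11. Across the 13543 genes the changes of the lines had a Pearson correlation of -0.02 and a Spearman correlation of 0.03, given as a description, since genes are not independent.

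The MV4-11 libraries hold spike-in RNAs, a set of added transcripts that the EOL-1 table lacks. Scaling the MV4-11 libraries to them moved the share of called genes that were higher from 49.0 to 35.4% in MV4-11. For the difference it moved from 47.0 to 31.1%. The spike-in share of counts in each shEZH2 library lay between the shares of the EV libraries. The shift from this scaling thus cannot be told apart from the spread between the controls, and it does not show a change across all genes. The median change in EOL-1 hardly moved, from -0.00588 to -0.00574. Calls in EOL-1 come from a joint fit of both lines, and they became fewer. Risen genes went from 1698 to 1221 and fallen genes from 1489 to 682, so the share that was higher went from 53.3 to 64.2%. Why calls in EOL-1 were lost was not tested, here or in the later counts with spike-in scaling.

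The difference itself passed the test in 3593 genes, 26.5% of those tested. The change was higher in MV4-11 in 1689 (12.5%) and lower in MV4-11 in 1904 (14.1%). At a difference of at least 2-fold the sides were less even, with 180 genes higher in MV4-11 (1.33%) and 579 lower (4.28%). With limma on the authors' log2 values these were 23 and 127. Strong rises were more frequent in EOL-1, where 381 genes rose (2.81%) and 27 fell (0.199%) at least 2-fold, against 225 (1.66%) and 233 (1.72%) in MV4-11. Of those 381 genes, 68 also rose in MV4-11 (17.8%) and 80 fell there (21.0%), against 14.5% and 15.1% of all genes. Of the 233 genes that fell at least 2-fold in MV4-11, 75 rose in EOL-1 (32.2%) and 19 fell (8.15%). For these, the shares of all genes are 12.5% and 11%. Among the 422 genes higher in both lines the size of the rise differed in 149, of which 76 rose more in MV4-11 and 73 more in EOL-1. Among the 363 lower in both it differed in 82, and 74 of these, EZH2 itself included, fell more in MV4-11. All genes that went in opposite directions also passed the test of the difference. This follows almost entirely from being called in both lines with opposite signs, so it adds no support. Some genes with a large difference, reversed or not, were hardly expressed in one of the lines. Of the 759 genes with a difference of at least 2-fold, 104 stayed below 1 CPM in both MV4-11 groups (13.7%). In both EOL-1 groups 122 did (16.1%). Of all genes tested, 9.16% and 10.7% did.

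**Figure D1:**
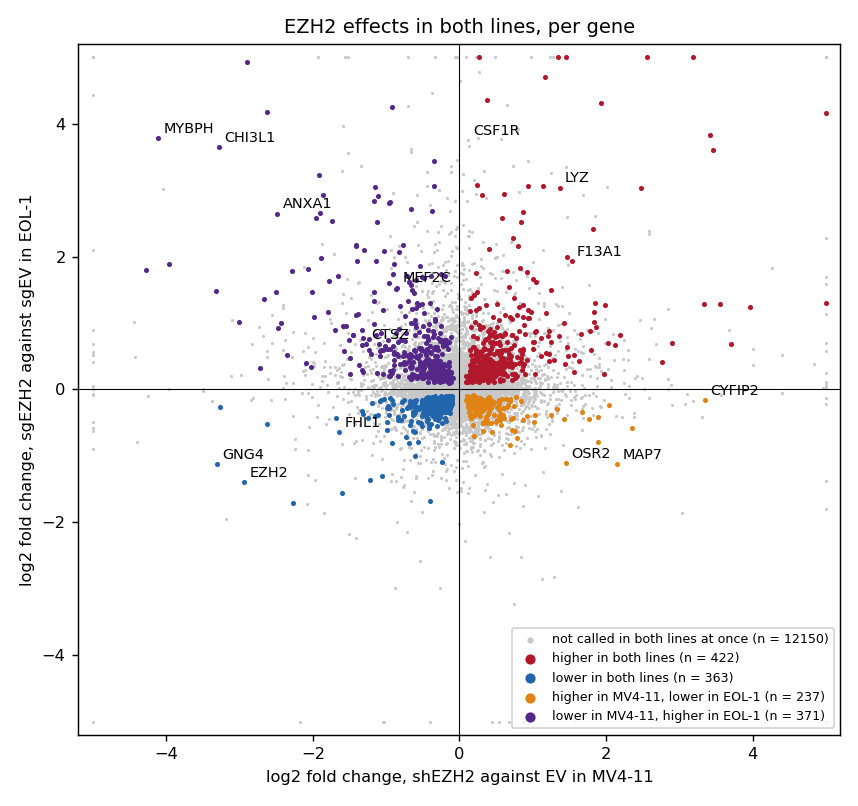
Log2 fold change of each of 13543 genes with shEZH2 in MV4-11 (x axis) against that with sgEZH2 in EOL-1 (y axis), 1 point per gene. Genes called in both lines are coloured by direction, and 69 genes beyond 5 on either axis are drawn at the edge. The 371 genes lower in MV4-11 and higher in EOL-1 reach the largest opposite changes, and the 237 of the other kind stay nearer to the centre.

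Promoters of 4 genes are shown as examples. PON2 rose from almost nothing in both lines. MYBPH and CHI3L1 stand next to each other in the genome and moved together in opposite directions between the lines, CHI3L1 at few counts in EOL-1. MAP7 led the genes that went the other way. Each run holds the 250 bases before and the 50 after the RefSeq start site, 5′ to 3′ on the strand of the gene (GRCh38.p14, another build than the authors' hg19), with every CpG (the letters CG, which read the same on both strands) in capitals. All 4 genes are on the minus strand. Among 27305 RefSeq promoters of this length, 95.8% hold a CpG, the median number is 14 and the quartiles are 3 and 28. PON2 (chr7:95434979-95435278) holds 24, MYBPH (chr1:203175777-203176076) holds 5, CHI3L1 (chr1:203186655-203186954) holds 7 and MAP7 (chr6:136550373-136550672) holds 39. The start sites of MYBPH and CHI3L1 lie 10.9 kb apart. No methylation or binding was measured in these libraries, and the letters are given as context.
PON2: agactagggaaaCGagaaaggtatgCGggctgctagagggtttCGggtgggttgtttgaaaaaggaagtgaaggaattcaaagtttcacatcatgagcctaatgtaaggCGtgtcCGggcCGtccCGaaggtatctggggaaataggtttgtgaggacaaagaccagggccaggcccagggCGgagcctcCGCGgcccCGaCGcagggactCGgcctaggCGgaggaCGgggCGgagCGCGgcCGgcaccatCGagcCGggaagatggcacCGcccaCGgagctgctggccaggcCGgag
MYBPH: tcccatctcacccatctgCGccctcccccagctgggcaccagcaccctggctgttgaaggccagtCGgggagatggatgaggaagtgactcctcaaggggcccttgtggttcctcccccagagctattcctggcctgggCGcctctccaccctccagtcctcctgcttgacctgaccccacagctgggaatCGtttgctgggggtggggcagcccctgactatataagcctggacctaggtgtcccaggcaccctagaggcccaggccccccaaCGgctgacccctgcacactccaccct
CHI3L1: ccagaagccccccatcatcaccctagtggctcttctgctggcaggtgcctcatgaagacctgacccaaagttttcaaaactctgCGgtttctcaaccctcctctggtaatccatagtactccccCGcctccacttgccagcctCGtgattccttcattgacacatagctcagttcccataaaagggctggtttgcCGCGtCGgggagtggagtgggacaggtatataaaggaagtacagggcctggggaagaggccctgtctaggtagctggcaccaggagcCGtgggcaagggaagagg
MAP7: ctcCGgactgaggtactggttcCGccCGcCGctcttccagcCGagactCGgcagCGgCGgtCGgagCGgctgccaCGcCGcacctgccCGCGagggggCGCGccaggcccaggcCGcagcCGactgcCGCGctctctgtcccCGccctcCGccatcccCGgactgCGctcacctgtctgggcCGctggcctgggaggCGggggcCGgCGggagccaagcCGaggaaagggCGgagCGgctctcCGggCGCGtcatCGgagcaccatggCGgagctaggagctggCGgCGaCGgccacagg

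Genes that rose in both lines included several that were almost silent in the controls. PON2, a paraoxonase of intracellular membranes, had 0 counts in both EV libraries and 89 and 102 counts with shEZH2, which puts the rise at 61.9-fold or more when EV is set to 3 counts, the limit that 0 counts over a group allow. In EOL-1 it went from 0.272 and 0.244 CPM to 5.28 and 4.14 CPM (4.17 ± 0.29). GPR63, a receptor coupled to G proteins, rose from 0.356 and 0.126 to 2.59 and 2.75 CPM in MV4-11 (3.42 ± 0.37) and from 0.738 and 0.487 to 8.79 and 8.68 CPM in EOL-1 (3.83 ± 0.23). No library of a control reached a depleted library of its line for either gene. FAM198B had 3 and 0 counts in EV and 19 and 17 with shEZH2, a ratio of 11.7 (95% exact interval for counting error 3.69 to 59.2), and rose by 3.60 ± 0.20 in EOL-1. F13A1, the A chain of coagulation factor XIII that monocytes make, rose from 6.94 and 5.47 to 19.0 and 16.9 CPM in MV4-11 (1.53 ± 0.13) and from 3.42 and 2.96 to 12.9 and 11.2 CPM in EOL-1 (1.93 ± 0.14). Its groups do not overlap in either line, and the difference of -0.40 ± 0.20 did not pass the test (adjusted p = 0.16). BST1, an ectoenzyme of myeloid cells also called CD157, rose by 1.47 ± 0.24 and 2.0 ± 0.37.

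Other shared rises differed in size between the lines. LYZ, the lysozyme of monocytes and granulocytes, stood at 177 and 192 CPM in EV and 214 and 207 CPM in sgEV. It reached 472 and 480.5 CPM with shEZH2 and 1716 and 1744 CPM with sgEZH2. From similar starting levels the rise was 1.37 ± 0.04 in MV4-11 and 3.04 ± 0.04 in EOL-1, a difference of -1.67 ± 0.06 (adjusted p = 3.3e-11). UBE2E2, a ubiquitin-conjugating enzyme, had 1 and 0 counts in sgEV and 77 and 75 with sgEZH2, and KCNQ3, a potassium channel subunit, had 0 counts in sgEV and 13 and 9 with sgEZH2, at least 8.27-fold higher. Both rose in MV4-11 too, from clear expression, by 1.34 ± 0.33 and 1.45 ± 0.23. With limma on the authors' log2 values the difference of KCNQ3 turned to 0.22 and did not pass (adjusted p = 0.131). The rise of UBE2E2 in MV4-11 did not pass without EV library 1 (adjusted p = 0.062) or shEZH2 library 2 (0.077). MXD4, a MAX partner that opposes MYC (0.55 and 0.24), ODC1, the first enzyme of polyamine synthesis and a MYC target (0.51 and 0.22), and TRIM22 (0.71 and 0.23) rose more in MV4-11, with differences of 0.32, 0.29 and 0.48. The 422 genes had a median change of 0.41 in MV4-11 and 0.39 in EOL-1, and 148 of them stayed in this group under all of 19 alternatives to the scaling, test, depth and libraries. The filter at a mean of at least 50 counts is not among the 19, since it removes genes, KCNQ3 and CHI3L1 among them, and neither is the crossed replicate block. UBE2E2 is not among those 148, while the other genes described so far as higher in both lines are.

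Genes that fell in both lines moved less. After EZH2 itself, ARAP2, a regulator of small GTPases, fell from 2.85 and 1.45 to 0.531 and 0.359 CPM in MV4-11 (-2.26 ± 0.37) and from 8.05 and 7.72 to 2.37 and 2.44 CPM in EOL-1 (-1.71 ± 0.20). FHL1, a LIM domain protein, fell from 67.2 and 70.8 to 20.8 and 23.5 CPM in MV4-11 (-1.64 ± 0.06) and from 38.7 and 39.5 to 25.1 and 25 CPM in EOL-1 (-0.64 ± 0.06), a difference of -1.0 ± 0.09. TPCN1, a cation channel of endosomes, fell in both (-0.73 ± 0.10 and -0.72 ± 0.12), and the difference was -0.01 ± 0.16. GNG4, a G protein subunit, fell in MV4-11 (-3.31 ± 0.48) and in EOL-1 (-1.13 ± 0.22). Its difference of -2.18 ± 0.56 did not pass with DESeq2 (adjusted p = 0.060), with limma on the authors' log2 values (0.365) or without shEZH2 library 2 (0.092). UHRF1, which maintains DNA methylation at replication (-0.42 and -0.21), and MCM3, a subunit of the replicative helicase (-0.43 and -0.18), fell in both and more in MV4-11. The 363 genes had median changes of -0.29 and -0.21, and 81 of them, with the 7 genes named here, stayed in this group under all 19 alternatives.

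The clearest reversals were genes that fell in MV4-11 and rose in EOL-1. MYBPH, a myosin-binding protein named for muscle, went from 8.60 and 8.05 to 0.413 and 0.538 CPM with shEZH2 (-4.12 ± 0.27) and from 1.36 and 0.696 to 14.1 and 13.8 CPM with sgEZH2 (3.78 ± 0.18). The groups do not overlap in either line, and the difference was -7.89 ± 0.32 (adjusted p = 1.6e-10). Its neighbour CHI3L1, a secreted chitinase-like protein of macrophages and neutrophils, went from 5.70 and 5.34 to 0.648 and 0.478 CPM in MV4-11 (-3.28 ± 0.37). In EOL-1 it went from 0.117 and 0.0348 to 1.3 and 0.654 CPM (3.64 ± 0.56). That rise rests on 3 and 1 counts in sgEV and 33 and 15 with sgEZH2. ANXA1, an annexin that limits inflammation, went from 28.8 and 31.4 to 5.60 and 5.14 CPM (-2.48 ± 0.12) and from 0.389 and 0.592 to 3.39 and 2.84 CPM (2.64 ± 0.23). After depletion both lines held ANXA1 at a few CPM, although the controls had differed widely. SLC37A2, a sugar phosphate transporter of macrophages, fell from 7.42 and 6.73 to 1.36 and 2.45 CPM (-1.89 ± 0.20) and rose from 2.80 and 2.82 to 11.0 and 11.2 CPM (1.98 ± 0.15). CLEC5A, a myeloid lectin receptor, had 9 and 4 counts in EV and 1 in each shEZH2 library, a ratio of 6.68 (95% exact interval 1.51 to 61.0), and rose by 4.17 ± 0.38 in EOL-1. Its fall in MV4-11 lost its call without any single library of that line except EV library 2, with adjusted p from 0.092 to 0.196. Of the 371 genes, 127 stayed in this group under all 19 alternatives, among them MYBPH, CHI3L1, ANXA1 and SLC37A2.

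The 237 genes that rose in MV4-11 and fell in EOL-1 changed by smaller amounts, with medians of 0.26 and -0.22. MAP7, which binds microtubules, rose from 0.415 and 0.566 to 2.18 and 2.21 CPM in MV4-11 (2.16 ± 0.27) and fell from 17.7 and 18.4 to 8.20 and 8.38 CPM in EOL-1 (-1.12 ± 0.09). The difference was 3.28 ± 0.28 (adjusted p = 5.8e-07). OSR2, a zinc finger factor of limb and palate development, rose from 1.01 and 1.51 to 3.18 and 3.71 CPM (1.46 ± 0.22) and fell from 23.5 and 23.7 to 10.5 and 11.4 CPM (-1.11 ± 0.09). For both genes EOL-1 had the higher control level, and the gap between the lines narrowed. ETV4, an ETS factor downstream of MAPK signalling, changed by 0.76 ± 0.13 and -0.63 ± 0.11, and NRBP2, a pseudokinase, by 0.72 ± 0.12 and -0.61 ± 0.11. TET1, a dioxygenase that oxidises methylated cytosine, changed by 0.79 ± 0.20 and -0.74 ± 0.19, a call lost within one or both lines with DESeq2 (adjusted p = 0.094 and 0.169) and without shEZH2 library 2 (0.055), sgEV library 2 (0.103) or sgEZH2 library 2 (0.089). Only 36 of the 237 genes stayed in this group under all 19 alternatives, among them MAP7, OSR2, ETV4 and NRBP2. The group fell to 57 genes when the MV4-11 libraries were scaled to their spike-in RNAs, to 89 with DESeq2, and to 100 and 105 without sgEV library 1 or 2, so its size is uncertain.

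**Figure D2:**
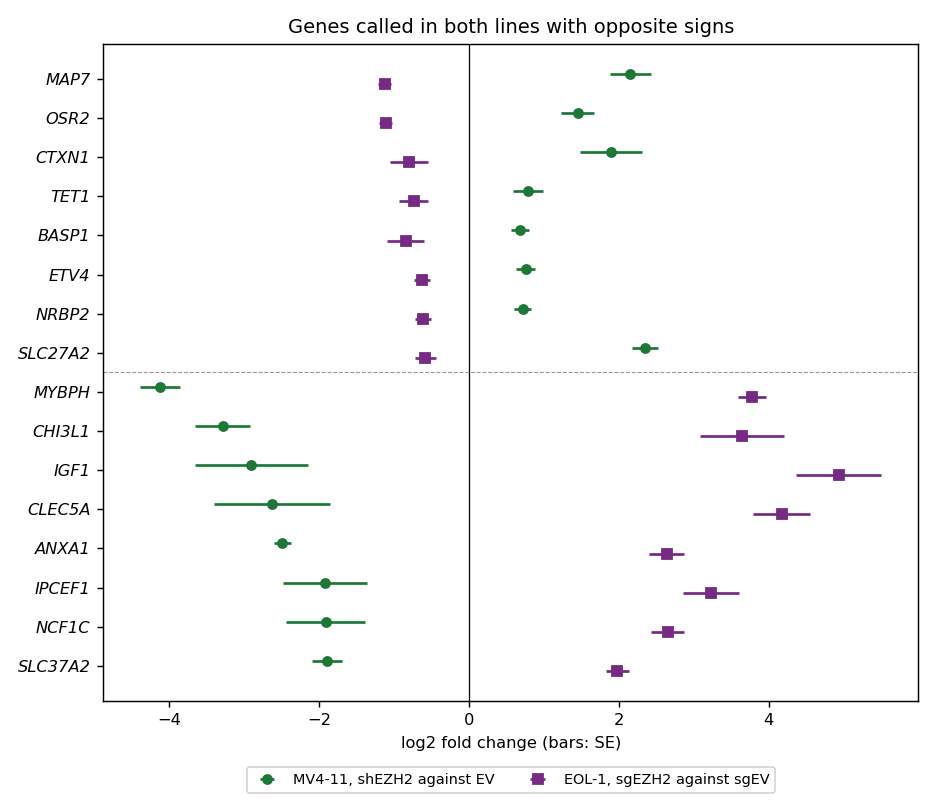
Log2 fold changes ± SE within MV4-11 (circles) and EOL-1 (squares) for 8 genes in each direction of reversal, ranked by the smaller of their 2 changes, from groups of 2 libraries. Above the dashed line MV4-11 lies to the right of 0 and EOL-1 to the left, and below it the sides are exchanged, with MYBPH at -4.12 and 3.78. The values of IGF1 and CLEC5A in MV4-11 rest on 3 counts or fewer in the shEZH2 group.

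Of the 24 gene lists, monocyte and macrophage genes had the lowest median difference. Of 27 tested members of 40 listed, 25 rose and 1 fell in EOL-1 (12.5% and 11% of all genes), and 6 rose and 15 fell in MV4-11 (14.5% and 15.1%). With spike-in scaling or DESeq2, 3 rose in MV4-11. The difference was lower in MV4-11 in 23 and higher in 1 (14.1% and 12.5%), with a median of -1.33 against 0.005 over all genes. The same shares of all genes apply to the counts of every later list. CSF1R, the receptor of the macrophage growth factor, stood at 47.3 CPM in both EV libraries and 53.3 and 49.5 CPM with shEZH2, and did not pass the test in MV4-11 (0.12 ± 0.06). In EOL-1 it rose from 2.41 and 3.24 to 39.0 and 37.5 CPM (3.75 ± 0.10), which brought it near the MV4-11 level. The scavenger receptor CD36 went from 7.30 and 7.92 to 5.60 and 6.10 CPM in MV4-11 and from 9.48 and 10.2 to 62.5 and 63.7 CPM in EOL-1. Its change was 2.68 ± 0.06 in EOL-1 and -0.38 ± 0.12 in MV4-11, and the latter did not pass with DESeq2 (adjusted p = 0.125), nor when EV library 2 (0.154) or either shEZH2 library (0.173 and 0.055) was left out. CCR2, the chemokine receptor of blood monocytes, rose in both lines, by 0.61 ± 0.06 and 2.94 ± 0.05. In all, 13 members fell in MV4-11 and rose in EOL-1, and 6 rose in both. Under every alternative at least 22 members had a lower change in MV4-11. The member with a higher change there was TLR2, named here after its value was seen. In bulk RNA, more cells of a type and more RNA per cell cannot be told apart.

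Few markers of other blood cells and of tissue cells could be tested, since most had no row in one or both tables. Of 10 epithelial and stromal markers, KRT8 and PECAM1 had rows in both tables. Their sum was 116 to 126 CPM in EV, 77.5 to 79.5 with shEZH2, 10.1 to 10.4 in sgEV and 17.6 to 18.2 with sgEZH2, mostly PECAM1, which leukocytes also express. The 2 tested B cell markers of 8 summed to 1.66 to 2.45, 2.24 to 2.81, 3.5 to 3.86 and 6.82 to 8.11 CPM in the same order. The 1 tested T and NK marker of 10 (NKG7) stood at 45.7 to 49.5, 33.6 to 36.1, 116 to 119 and 95.1 to 104 CPM. The 2 tested erythroid and megakaryocyte markers of 12 summed to 14.8 to 15.0, 8.90 to 10.6, 14.1 to 15.1 and 10.1 to 10.7 CPM, and the 1 tested mast cell marker of 6 (KIT) stood at 0.692 to 1.25, 0.177 to 0.299, 9.64 to 10.2 and 8.38 to 9.94 CPM. Some of these sums moved with the myeloid lists, and their part in the results was not tested.

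**Figure D3:**
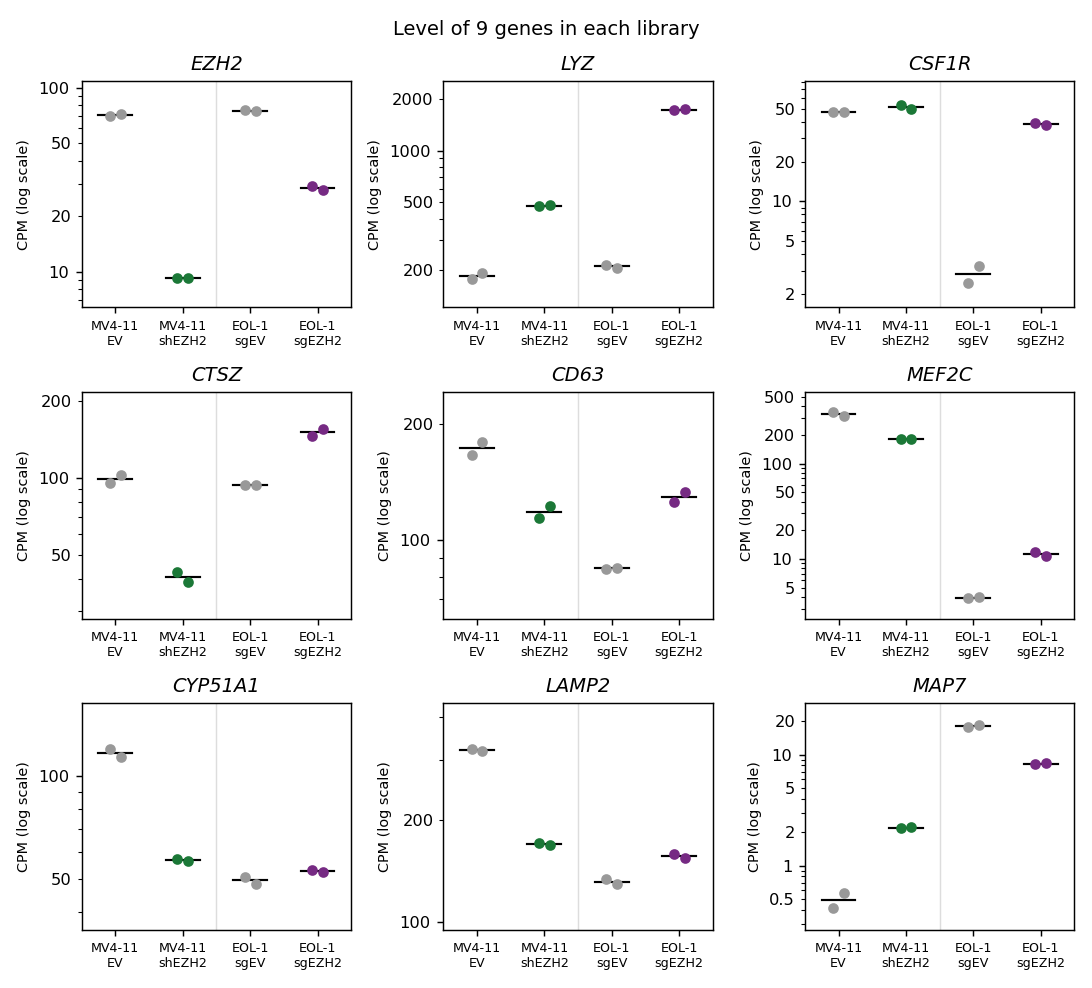
Level of 9 genes in CPM (log axis, each panel with its own scale) in each of 8 libraries, with the mean of the 2 libraries as a bar. EZH2 falls in both lines, LYZ rises in both, CSF1R rises in EOL-1 alone, CTSZ, CD63, MEF2C and LAMP2 fall in MV4-11 and rise in EOL-1, CYP51A1 falls in MV4-11, and MAP7 does the opposite of CTSZ.

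Lysosomal genes split between the lines in the same manner. Of 29 tested members, 20 rose and 0 fell in EOL-1 (12.5% and 11% of all genes), while 5 rose and 15 fell in MV4-11 (14.5% and 15.1%). The difference was lower in MV4-11 in 19 (14.1% of all genes, median -0.37). Without shEZH2 library 1 the members that fell in MV4-11 numbered 9. With all libraries, 13 of the 15 members that fell in MV4-11 rose in EOL-1. CTSZ, a cathepsin of phagocytes, stood at 95.5 and 103 CPM in EV and at 93.8 and 93.7 CPM in sgEV. It fell to 42.6 and 39.2 CPM with shEZH2 (-1.28 ± 0.06) and rose to 145 and 155 CPM with sgEZH2 (0.68 ± 0.05). From nearly equal controls the lines thus moved apart, with a difference of -1.95 ± 0.08 (adjusted p = 1.1e-10). LAMP2, a lysosomal membrane protein (-0.92 and 0.25), CTSB, another cathepsin (-0.95 and 0.28), and CD63, a tetraspanin of lysosomes and granules (-0.55 and 0.62), did likewise and kept both calls under all 19 alternatives.

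Most granule and antigen presentation genes rose in EOL-1 and changed less evenly in MV4-11. Of 12 early myeloid granule genes, 10 rose and 2 fell in EOL-1, 7 rose and 3 fell in MV4-11 (1 without shEZH2 library 1), and 8 had a lower and 1 a higher change in MV4-11 (median -0.96). PRTN3, a serine protease of primary granules, stood at 680 and 724 CPM in EV against 4.28 and 4.38 CPM in sgEV. It rose to 812 and 838 CPM in MV4-11 (0.23 ± 0.04) and to 35.6 and 37.8 CPM in EOL-1 (3.08 ± 0.08), so that the larger relative change took place in the line with the lower control level. MS4A3, a granule-stage membrane protein, rose in both (0.94 and 3.06), and myeloperoxidase MPO fell in MV4-11 (-0.51) and rose in EOL-1 (1.69). Of 12 genes of the MHC class II pathway, 9 rose and 0 fell in EOL-1, 3 rose (1 with spike-in scaling) and 4 fell in MV4-11, and 8 had a lower change in MV4-11. HLA-DRB1, a class II chain, went from 10.8 and 12 to 3.18 and 4.07 CPM (-1.65 ± 0.15) and from 71.7 and 72.1 to 224 and 244 CPM (1.70 ± 0.05), while the invariant chain CD74 rose in both (0.16 and 0.94), in MV4-11 not with spike-in scaling (adjusted p = 0.10) or without shEZH2 library 2 (0.052). In the MHC class I pathway (18 genes), 14 rose and 0 fell in EOL-1 against 3 and 5 in MV4-11 (3 fell without shEZH2 library 2), and 14 had a lower change in MV4-11. HLA-B rose by 1.26 ± 0.04 in EOL-1 and stood at 436 and 449 CPM in EV and 456 and 470 CPM with shEZH2. Values of single HLA genes are uncertain, because they are close copies of each other and reads may be shared among them.

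Interferon-stimulated genes leaned to opposite sides. Of 34 tested members, 16 fell and 2 rose in MV4-11, 13 rose and 1 fell in EOL-1, and the difference was lower in MV4-11 in 21 and higher in 1 (median -0.67). The 7 reversals included LGALS3BP, a secreted glycoprotein, which went from 21.8 and 18.7 to 1.24 and 2.81 CPM in MV4-11 (-3.33 ± 0.25) and from 2.84 and 3.83 to 8.56 and 10.2 CPM in EOL-1 (1.48 ± 0.22). The transcription factor IRF1 changed by -0.45 ± 0.07 and 0.40 ± 0.05. BST2, which tethers viruses to the cell surface, fell in MV4-11 (-0.59 ± 0.05) and did not pass in EOL-1 (0.02 ± 0.04). The 1 member with a higher change in MV4-11 was TRIM22. With DESeq2 the members with a lower change in MV4-11 numbered 14. Those that rose in EOL-1 numbered 7 with DESeq2 or without sgEV library 2, and 8 with limma on the log2 values or without sgEZH2 library 1.

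Genes of cholesterol synthesis and uptake fell in MV4-11 and had no common direction in EOL-1. Of 28 tested members, 21 fell and 0 rose there, while 5 rose and 5 fell in EOL-1, and 21 had a lower change in MV4-11 (median -0.40, 16 members with DESeq2). CYP51A1, a demethylase of sterol synthesis, fell from 120 and 114 to 56.9 and 56.4 CPM in MV4-11 (-1.05 ± 0.05) and stood at 50.6 and 48.2 CPM in sgEV and 53.2 and 52.4 CPM with sgEZH2 (0.10 ± 0.05). The MV4-11 level thus came down to that of EOL-1. The counts in EOL-1 were 3 risen and 1 fallen without either sgEV library, and 3 and 3 without sgEZH2 library 2, while 1 fell without sgEZH2 library 1. SREBF2, the transcription factor of the pathway, fell from 394 and 377 to 258 and 249 CPM (-0.60 ± 0.04), with -0.04 ± 0.04 in EOL-1.

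Genes of the leukaemic stem cell programme and receptors followed the myeloid lists in part. HOXA9 and MEIS1, which define the KMT2A-rearranged programme, did not pass in either line. MEF2C, a transcription factor of that programme, fell from 345 and 313 to 182 and 183 CPM in MV4-11 (-0.85 ± 0.05) and rose from 3.85 and 3.97 to 11.9 and 10.6 CPM in EOL-1 (1.53 ± 0.12). SATB1, a chromatin organiser, changed by -0.31 ± 0.04 and 1.21 ± 0.05, and FLT3, the receptor kinase mutated in MV4-11, by -0.43 ± 0.03 and 0.19 ± 0.03. These 3 genes are the reversals among 18 tested members, of which 7 had a lower and 2 a higher change in MV4-11 (median -0.07, 0 higher with spike-in scaling). IGF2BP2, an RNA-binding protein, had 0 and 1 counts in sgEV and 53 and 63 with sgEZH2, a ratio of 131 (95% exact interval 23.0 to 5213), and 143 to 158 CPM in every MV4-11 library. Of 30 cytokine and growth factor receptors, 18 rose and 1 fell in EOL-1, 8 rose and 11 fell in MV4-11, and 18 had a lower change in MV4-11 (median -0.68). Of 18 myeloid transcription factors, 3 rose and 2 fell in MV4-11, 8 rose and 2 fell in EOL-1, and 6 had a lower and 2 a higher change in MV4-11 (2 lower with DESeq2, 3 without shEZH2 library 1). Those that rose in EOL-1 numbered 4 with DESeq2 and 4 or 5 without any single EOL-1 library. The interleukin 6 receptor IL6R rose in both (0.22 and 1.19), and its call in MV4-11 was lost with spike-in scaling (adjusted p = 0.140).

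Genes of proliferation and of amino acid stress fell in both lines more often than they rose. Of 43 mitosis genes, 29 fell in MV4-11 and 23 in EOL-1 (15.1% and 11% of all genes), 0 and 1 rose, 16 fell in both, and 9 fell more in MV4-11 (median difference -0.04). The 29 mitosis genes became 18 without shEZH2 library 2. The 23 became 8 with spike-in scaling or without sgEV library 1, 11 without sgEV library 2, 12 without sgEZH2 library 2 and 14 with DESeq2. CDC20, which activates the anaphase-promoting complex, was the clearest exception, at 125 and 140 CPM in EV and 69.3 and 69.7 CPM with shEZH2 (-0.93 ± 0.05), and 122 to 130 CPM in all EOL-1 libraries (-0.05 ± 0.05). Of 46 DNA replication genes, 17 fell in MV4-11 and 28 in EOL-1, 12 fell in both, and the difference was higher in MV4-11 in 11 (1 with spike-in scaling) and lower in 5. The 17 DNA replication genes became 7 without shEZH2 library 1 and 10 with DESeq2, and the 28 became 18 with spike-in scaling. The 11 became 4 without either shEZH2 library, 5 and 6 without sgEV library 1 and 2, and 6 with DESeq2. POLE, the leading strand polymerase, fell in EOL-1 (-0.35 ± 0.05), with 0.03 ± 0.06 in MV4-11 and a difference of 0.38 ± 0.07 (adjusted p = 0.0011). Of 31 genes of serine synthesis, amino acid supply and endoplasmic reticulum stress, 17 fell in MV4-11 and 15 in EOL-1, 9 in both, and 12 had a lower change in MV4-11 (7 with DESeq2). The 15 became 8 without sgEV library 2 and 9 with DESeq2. SLC7A11, the cystine importer, fell from 11.0 and 9.81 to 3.54 and 3.29 CPM in MV4-11 (-1.61 ± 0.15) and stood at 27.2 and 27.1 CPM in sgEV and 33.1 and 28.7 CPM with sgEZH2 (0.19 ± 0.07). SLC7A5, a leucine importer, was reversed in the other direction (0.27 ± 0.04 and -0.25 ± 0.03).

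The next 3 lists stand against 14.5% of all genes risen and 15.1% fallen in MV4-11, 12.5% and 11% in EOL-1, and 12.5% higher and 14.1% lower in the difference. Of 19 G1 cyclins and CDK inhibitors, 1 rose and 9 fell in MV4-11, 2 rose and 8 fell in EOL-1, and 3 had a higher and 5 a lower change in MV4-11. The 8 became 3 with spike-in scaling, 4 without either sgEV library, and 5 with DESeq2 or without sgEZH2 library 2. The 3 became 0 with spike-in scaling or without shEZH2 library 1 or sgEV library 2, and 1 with DESeq2 or without shEZH2 library 2 or sgEZH2 library 2. With DESeq2, 3 had a lower change. Of 27 immediate early genes, 3 rose and 7 fell in MV4-11, 5 rose and 7 fell in EOL-1, and 3 were higher and 4 lower in the difference, which is near the share of all genes. Without EV library 1, 6 rose in MV4-11. In EOL-1, 3 rose without sgEV library 2 or sgEZH2 library 1, and 4 fell without sgEV library 2 or sgEZH2 library 2 or with DESeq2. Of 13 members of the BCL2 family, 5 rose and 5 fell in MV4-11, 2 rose and 3 fell in EOL-1, and 3 were higher and 4 lower (1 higher with spike-in scaling, 2 lower with DESeq2). In MV4-11, 3 of them rose with spike-in scaling, with DESeq2 or without shEZH2 library 2, and 3 fell without EV library 2. In EOL-1, 1 fell without either sgEV library or sgEZH2 library 2, or with DESeq2 or limma on the log2 values.

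Many targets of p53 rose in both lines, with differences in size for some. Of 35 tested, 20 rose and 1 fell in MV4-11, 14 rose and 1 fell in EOL-1, and 9 rose in both. The difference was higher in MV4-11 in 10 and lower in 4, with a median of 0.07. The 10 became 6 with spike-in scaling or DESeq2 and without shEZH2 library 2 or sgEV library 1. CDKN1A, which encodes the inhibitor p21, stood between 45.6 and 49.1 CPM in all MV4-11 libraries (0.05 ± 0.05) and rose from 54.8 and 56.5 to 174 and 173 CPM in EOL-1 (1.64 ± 0.04). The reverse held for CYFIP2, an actin regulator: it rose from 2.31 and 1.51 to 18.4 and 21.0 CPM in MV4-11 (3.35 ± 0.15). In EOL-1 it stood between 95.5 and 109.9 CPM, a fall of -0.16 ± 0.05 that did not pass with DESeq2 (adjusted p = 0.220) or without sgEV library 1 (0.183), sgEV library 2 (0.136) or sgEZH2 library 2 (0.163). The death receptor TNFRSF10B rose in MV4-11 (0.55 ± 0.05), with 0.00 ± 0.04 in EOL-1. CCND2, a G1 cyclin, rose in EOL-1 from 0.816 and 1.15 to 10.9 and 10.6 CPM (3.43 ± 0.18). In MV4-11 it went from 30.7 and 24.8 to 21.4 and 22.2 CPM, a fall of -0.35 ± 0.10 that did not pass with DESeq2 (adjusted p = 0.116) or when EV library 1 (0.221) or either shEZH2 library (0.101 and 0.057) was left out.

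**Figure D4:**
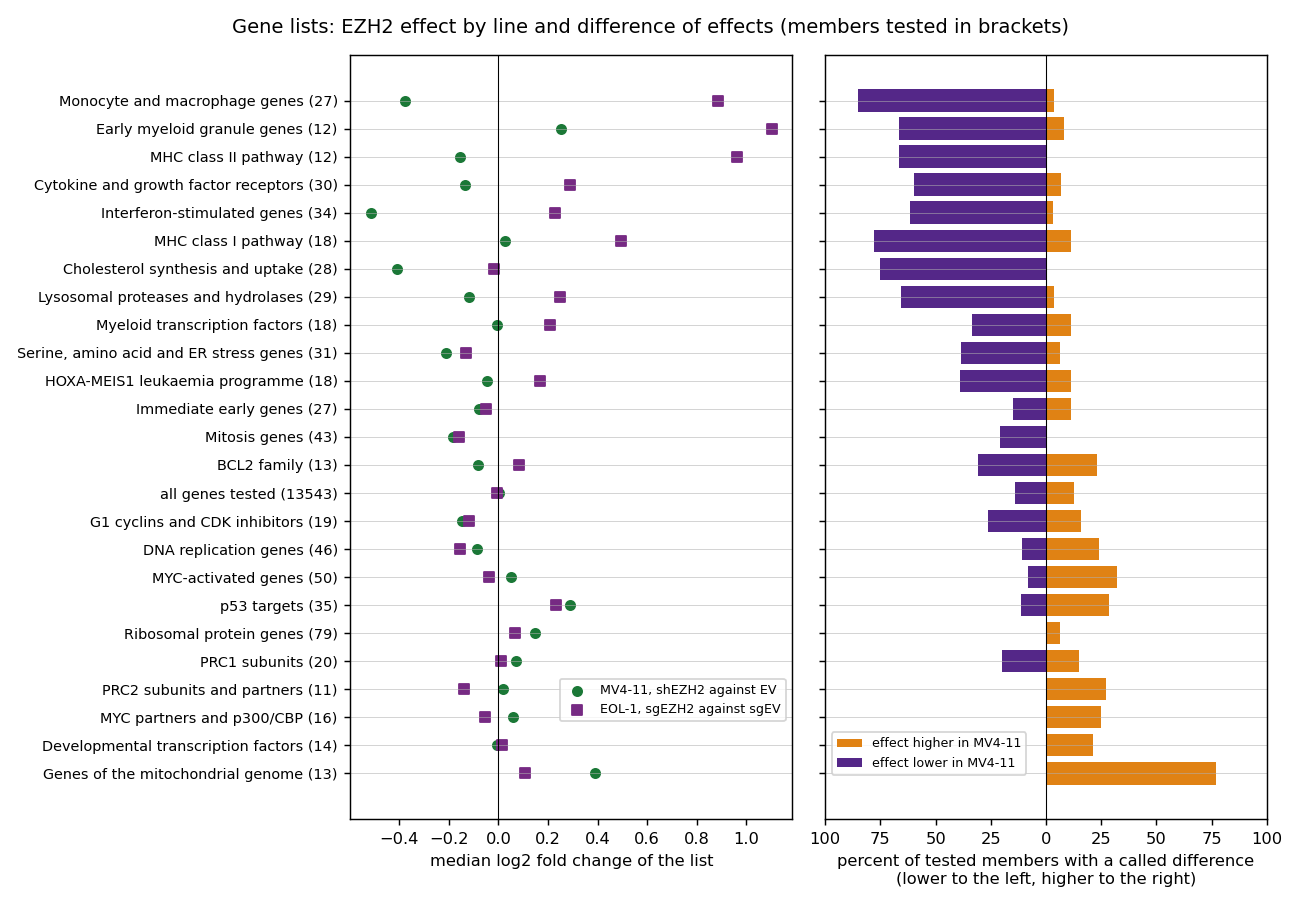
Left, median log2 fold change of each gene list in MV4-11 (circles) and EOL-1 (squares). Right, percent of tested members whose change was lower (to the left) or higher (to the right) in MV4-11 at adjusted p under 0.05, with all 13543 genes as a line of their own. Lists are ordered by their median difference, from monocyte genes at the top, with 23 of 27 members lower in MV4-11, to mitochondrial genes at the bottom, with 10 of 13 higher.

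Polycomb genes other than EZH2 moved by small amounts in most cases. Of 11 PRC2 subunits and partners, JARID2, a cofactor that guides PRC2 to its targets, rose in MV4-11 from 53.2 and 45.1 to 93.2 and 83.1 CPM (0.84 ± 0.08), with 0.12 ± 0.08 in EOL-1. RBBP4, a histone-binding subunit, fell in EOL-1 (-0.17 ± 0.03). In the list 1 rose and 2 fell in MV4-11, and 0 rose and 5 fell in EOL-1 (3 with spike-in scaling or DESeq2 and without sgEV library 2 or sgEZH2 library 2). Of 20 subunits of PRC1, the partner complex, 4 rose and 1 fell in MV4-11, 6 rose and 4 fell in EOL-1, and BMI1 rose from 71.2 and 66.5 to 120.1 and 120.3 CPM with sgEZH2 (0.80 ± 0.04) and by 0.18 ± 0.06 in MV4-11. The 4 became 1 with spike-in scaling or DESeq2 and 2 without either shEZH2 library. The 6 became 3 with spike-in scaling and 2 with DESeq2 or without either sgEV library, and the 4 that fell in EOL-1 became 2 with spike-in scaling. The rise of BMI1 in MV4-11 did not pass with DESeq2 (adjusted p = 0.115) or spike-in scaling (0.218), nor when EV library 2 (0.109) or either shEZH2 library (0.077 and 0.104) was left out.

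Of 16 MYC partners and p300 or CBP genes, 4 rose and 2 fell in MV4-11, 2 rose and 2 fell in EOL-1, and 4 had a higher change in MV4-11 (2 with spike-in scaling). Without EV library 1 both the risen in MV4-11 and those with a higher change there numbered 7, and 2 rose in MV4-11 with spike-in scaling, with DESeq2 or without EV library 2. Of 50 MYC-activated genes, 13 rose and 7 fell in MV4-11 (14.5% and 15.1% of all genes), 3 rose and 9 fell in EOL-1 (12.5% and 11%), and the difference was higher in MV4-11 in 16 and lower in 4 (12.5% and 14.1%). The median difference was 0.06, and the share that fell in MV4-11 is near that of all genes. The 13 MYC-activated genes became 6 with spike-in scaling and 8 without either shEZH2 library. The 7 became 3 and 4 without shEZH2 library 1 and 2, and 4 with DESeq2. The 16 became 5 with spike-in scaling and 10 without shEZH2 library 2 or sgEV library 2. The 4 became 8 without EV library 1, and 2 with DESeq2 or without shEZH2 library 1 or either sgEV library. IPO4, a nuclear import receptor, rose in MV4-11 (0.24 ± 0.04) and fell in EOL-1 (-0.20 ± 0.04). TFRC, the transferrin receptor, fell in EOL-1 (-0.40 ± 0.04) and rose in MV4-11 (0.14 ± 0.04), the latter not with spike-in scaling (adjusted p = 0.341) or when EV library 2 (0.104) or shEZH2 library 1 (0.140) was left out. All 13 genes of the mitochondrial genome rose in MV4-11 and 6 in EOL-1, and 10 rose more in MV4-11 (median difference 0.29, from 6 members without shEZH2 library 2 or sgEV library 1 to 13 across the alternatives). The 6 mitochondrial genes that rose in EOL-1 became 3 with spike-in scaling or without sgEV library 1, 1 without sgEV library 2 and 2 without sgEZH2 library 2. MT-CO1, a subunit of cytochrome oxidase, rose from 4682 and 4632 to 5829 and 5897 CPM in MV4-11 (0.33 ± 0.03) and was at 3177 and 3120 CPM in sgEV and 3074 and 3117 CPM with sgEZH2. The mitochondrial share of all counts rose with these genes, from 2.19 and 2.23% to 2.80 and 2.81% in MV4-11 and from 1.06 and 1.05% to 1.14 and 1.15% in EOL-1, and its part in the other results was not tested. Of 79 ribosomal protein genes, 51 rose in MV4-11 (33 with spike-in scaling, 30 without EV library 1 and 16 without shEZH2 library 2) and 5 in EOL-1, with a higher change in MV4-11 in 5. The ribosomal protein genes that rose in EOL-1 numbered 30 without either EV library, 17 without sgEZH2 library 1, 1 without sgEV library 1 or sgEZH2 library 2, and 0 without sgEV library 2. Those with a higher change in MV4-11 numbered from 1 without shEZH2 library 2 or sgEV library 2 to 17 without sgEZH2 library 2 and 34 without EV library 2.

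Among the largest differences, several genes were at 0 counts in 1 group. Higher in MV4-11, OLIG2, a neural bHLH factor, had 0 counts in EV and 15 and 11 with shEZH2, at least 8.43-fold higher, and stood between 11.0 and 14.5 CPM in all EOL-1 libraries without a called change. NT5C3B, a nucleotidase, rose from 0.534 and 0.440 to 5.42 and 6.28 CPM in MV4-11 (3.57 ± 0.23), against 95.1 to 102 CPM in EOL-1 (-0.09 ± 0.04). RSC1A1, a gene within another gene, had 0 counts in EV and 63 and 37 with shEZH2, at least 32.4-fold higher, and 3.14 to 3.43 CPM in EOL-1. In the other direction IKBKGP1, a pseudogene, had 43 and 37 counts in EV and 0 with shEZH2, at least 27.4-fold lower, and did not pass in EOL-1 (0.56 ± 0.24). HNMT, which inactivates histamine, had 0 counts in sgEV and 11 and 9 with sgEZH2, at least 7.52-fold higher, and between 39.9 and 50.7 CPM in MV4-11. Its difference did not pass with limma on the authors' log2 values (adjusted p = 0.145). RSC1A1 and IKBKGP1 share sequence with other genes, so their counts are uncertain. Of 14 tested developmental transcription factors, a list of 70 that Polycomb represses in many cells, 4 rose and 0 fell in MV4-11 (14.5% and 15.1% of all genes), 1 rose and 4 fell in EOL-1 (12.5% and 11%), and 3 had a higher change in MV4-11 (12.5%). The 4 that fell in EOL-1 became 1 or 2 without any single EOL-1 library, and with DESeq2, spike-in scaling, thinned counts or limma on the log2 values.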

How the data were processed

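The deposited tables of both lines hold expected counts per gene, made by the authors with RSEM on hg19, and normalised log2 values for which DESeq is named, all per the submitters' processing notes. Aligner, annotation, tool versions and strand use were not given in the sources used here. Table columns were matched to the 8 libraries by their names, and those of the depleted libraries were matched to the labels by inference.

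Expected counts were rounded and rows joined by symbol. Of 13720 shared rows, 13543 passed filterByExpr. The 56 spike-in rows of the MV4-11 table were left out, and 17 rows whose symbols had become dates stayed in without being named. edgeR 4.0.16 in R 4.3.3 fitted 4 group means jointly (TMM scaling, robust quasi-likelihood fit), and p-values were adjusted by Benjamini-Hochberg, with genes called under 0.05. The 95% exact intervals cover counting error only. Alternatives used DESeq2 1.42.0, limma 3.58.1 (voom on the counts, and limma on the authors' log2 values), other scalings and filters, thinned counts, a replicate block and each library left out. A crossed block, the counts at 2-fold and the counts within lists were added after seeing the data. The procedure was tested on simulated data.

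The members of the 24 gene lists and 8 marker lists, and the comparison itself, were chosen with earlier results of these data known. Named genes are EZH2, MYC, the 8 per direction with the largest difference, and, among genes called in both lines, the 8 in each of the 4 sign patterns ranked highest by the smaller of their changes. These needed a mean of at least 50 scaled counts in the highest group and libraries that do not overlap in a called line. Up to 4 members per list with the smallest p in the difference contrast were added, and marker genes are named as checks of the lines. A comparison of promoter classes was void, since only 69.8% of tested genes matched a RefSeq promoter. The promoters come from RefSeq on GRCh38.p14, and no coordinate of the authors' build is used. The text describes only part of the genes that met the rule.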

Additional observations from a re-analysis of the deposited data

Results flagged for a closer look

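The change with EZH2 depletion differed between MV4-11 and EOL-1 by the test of the difference in 1689 genes with the higher and 1904 with the lower change in MV4-11. The named genes among them follow with their log2 difference, MV4-11 minus EOL-1. Line and depletion method cannot be told apart in any of them.

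Among genes that moved in opposite directions, the difference was -7.89 for MYBPH, -6.92 for CHI3L1, -5.13 for ANXA1, -4.80 for LGALS3BP, -3.87 for SLC37A2, -3.78 for CCND2, -3.35 for HLA-DRB1, -3.06 for CD36, -2.39 for MEF2C, -2.20 for MPO, -1.95 for CTSZ, -1.52 for SATB1, -1.43 for PECAM1, -1.23 for CTSB, -1.17 for LAMP2, -1.17 for CD63, -0.85 for IRF1 and -0.62 for FLT3. In the other direction it was 3.51 for CYFIP2, 3.28 for MAP7, 2.56 for OSR2, 1.53 for TET1, 1.39 for ETV4, 1.32 for NRBP2, 0.54 for TFRC, 0.52 for SLC7A5 and 0.44 for IPO4.

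Among genes that rose in both lines it was -2.85 for PRTN3, -2.33 for CCR2, -2.12 for MS4A3, -1.67 for LYZ, -0.97 for IL6R, -0.78 for CD74, -0.64 for RNASE2, -0.62 for BMI1, 0.29 for ODC1, 0.32 for MXD4, 0.40 for TLR2 and 0.48 for TRIM22. Among genes that fell in both it was -2.18 for GNG4, -1.54 for EZH2, -1.0 for FHL1, -0.25 for MCM3 and -0.21 for UHRF1. The rise of TLR2 in EOL-1 was small (0.15). It did not pass with spike-in scaling (adjusted p = 0.140), with DESeq2 (0.116) or with thinned counts (0.125).

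Among genes called in 1 line it was -3.63 for CSF1R, -1.90 for KIT, -1.80 for SLC7A11, -1.59 for CDKN1A, -1.19 for HLA-B, -1.15 for CYP51A1, -1.13 for KRT8, -0.87 for CDC20, -0.62 for BST2 and -0.56 for SREBF2. It was 3.66 for NT5C3B, 0.72 for JARID2, 0.55 for TNFRSF10B, 0.38 for POLE, 0.36 for MT-CO1, 0.30 for MYC and 0.23 for RBBP4. The difference of KIT did not pass with limma on the authors' log2 values (-0.26, adjusted p = 0.118) or without EV library 1 (0.096) or shEZH2 library 1 (0.085), and without either of these libraries its fall in MV4-11 did not pass (0.070 and 0.059). That of KRT8 lost its call without any single library except sgEV library 1 (0.058 to 0.220) and in most other alternatives (0.231 with DESeq2), and that of RBBP4 with spike-in scaling (0.073).

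Where 1 group had 0 counts, the difference taken against the floor of 3 counts was at least 4.98 for RSC1A1, 2.82 for OLIG2 and 1.78 for PON2, and at least as low as -5.33 for IKBKGP1, -2.64 for HNMT and -1.60 for KCNQ3, whose difference turned to 0.22 with limma on the authors' log2 values. Fitted values on 3 counts or fewer in 1 group were -7.83 for IGF1, -6.80 for CLEC5A, -6.55 for IGF2BP2 and -5.68 for UBE2E2, and depend on the prior count.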

How the results depend on the processing

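The counts of called genes moved with the processing. The genes named were mostly picked for large or clear changes, so their steadiness cannot be set against that of the counts. Spike-in scaling of the MV4-11 libraries moved the median change there by -0.04, and that of EOL-1 only from -0.00588 to -0.00574. The spike-in shares of the shEZH2 libraries lay between those of the EV libraries, so the shift in MV4-11 cannot be told apart from the spread between controls. With this scaling 779 genes were higher in MV4-11 in the difference, 1110 rose in MV4-11 and 682 fell in EOL-1. In both lines 234 rose and 174 fell, and 57 rose in MV4-11 and fell in EOL-1. With DESeq2 the difference was higher in 913 and lower in 1128, 1178 rose and 1249 fell in MV4-11, 918 rose and 674 fell in EOL-1, 208 rose and 139 fell in both, 89 and 167 were reversed (higher in MV4-11 and in EOL-1), and 103 were higher by at least 2-fold. At least 2-fold higher were 112 with a mean of at least 50 counts, and 23 higher and 127 lower with limma on the authors' log2 values. With EOL-1 thinned to the MV4-11 depth, 157 rose in MV4-11 and fell in EOL-1.

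Leaving out each library in turn gave 1153 to 1698 genes higher and 1494 to 1940 lower in the difference, 144 to 212 and 513 to 555 at 2-fold, 1273 to 1986 higher and 1381 to 2063 lower in MV4-11, and 1038 to 1985 higher and 661 to 1636 lower in EOL-1. It gave 259 to 464 higher in both, 159 to 369 lower in both, 100 to 311 reversed with MV4-11 higher and 233 to 386 with EOL-1 higher. Without sgEV library 1 or 2, genes higher in EOL-1 fell to 1085 and 1038, lower in EOL-1 to 684 and 661, higher in both to 276 and 259, lower in both to 174 and 159, and the reversed groups to 100 and 105 and to 246 and 233. Without sgEZH2 library 2 they were 913 lower in EOL-1, 241 lower in both and 155 reversed with MV4-11 higher. Without shEZH2 library 1 or 2, 224 and 236 were lower in both and 123 and 140 reversed with MV4-11 higher, and without shEZH2 library 2 1273 rose in MV4-11. Among the lists, spike-in scaling left 1 member higher in MV4-11 for PRC2, 1 for PRC1, 6 for p53 targets, 0 for the G1 cyclins and CDK inhibitors and 1 for the BCL2 family. The causes were not tested.

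The called difference of KCNQ3 (-4.84 in the reported fit, from 0 counts in sgEV) turned to 0.22 with limma on the log2 values (adjusted p = 0.131). Differences that were not called changed sign in some settings. With limma on the log2 values F13A1 was at 0.040, BST1 at 0.30, ARAP2 at 0.18, RNASE3 at 0.017 and DMPK at -0.011. FAM198B was 0.15 with limma-voom and 0.072 with thinned counts, and DMPK was -0.013 with thinned counts. Leaving out each library in turn gave -1.07 to 3.93 for FAM198B, -0.96 to 0.51 for GPR63, -1.59 to 0.12 for BST1, -0.96 to 0.017 for ARAP2, -0.084 to 0.36 for ANXA2R, -0.33 to 0.14 for ADM2, -0.14 to 0.14 for TPCN1, -0.035 to 0.25 for DMPK and -0.18 to 0.053 for RNASE3.

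Replicate numbers are shared by the groups, but the labels do not say that a number marks a shared culture or day. Deviations of same-numbered libraries correlated at 0.145 in MV4-11 and -0.209 in EOL-1 over 10939 genes. With the number as a replicate block the difference was higher in 1917 and lower in 1994 genes, and 484 rose and 442 fell in both. With the pairing of EOL-1 crossed, chosen after seeing the data, these differences were 1928 and 2018.

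With 2 libraries a group, the median SE of a difference was 0.115. A difference has to be well beyond its SE to pass, so small differences were rarely detectable, also some above 0.115. Genes at few counts have wide intervals, and MV4-11 was sequenced less deeply than EOL-1.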

Other observations

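Rows that stand in 1 table only could not be compared. The MV4-11 table held 1305 such gene rows, of which 184 had a mean of at least 50 counts, and 1311 stood in that of EOL-1 alone, of which 167 had. HOXA3, HOXA5, HOXA6 and HOXA7 had a row in the EOL-1 table only, as had PDGFRA, VCAN, S100A12 and CLEC7A, while CCND1, CDKN2A and CDKN2B, and the granule gene ELANE, had one in the MV4-11 table only. An absent row gives no level.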
